A study of Mus musculus with 24 samples.

Results

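Immortalized WT mouse embryo fibroblasts (MEFs) were compared with primary WT MEFs, which are the WT controls of the study's 2 experiments. The comparison joined the 3 columns labelled IMM_WT with the 3 columns labelled WT by gene identifier, that is 6 of the 24 libraries of the series, and tested 12714 of the 41710 genes, those with a CPM (reads scaled to the size of the library) of at least 1 in at least 3 of these 6 libraries. MEFs are fibroblasts grown out of dissociated embryos, here pooled embryos of embryonic day 14 to 16. Both WT groups carried floxed alleles of Myc, of Mlx or of both that had been left intact, together with the CreER fusion at the ROSA26 locus, whose promoter is active in nearly all cells, which the drug 4OHT switches on. The labels name ethanol vehicle as the control treatment of primary cells, and immortalized WT cells were kept in medium without 4OHT. Immortalized cells had been exposed for 72 h to a lentivirus that carries SV40 T-antigen and had then been selected in blasticidin, at 1 µg/ml for 5 days and 2 µg/ml for a further 10 days. Cells that had not taken up the virus were killed by this selection, and no cloning step is described. The sources used here describe a single WT line as the control in most experiments, without stating which of the 3 floxed parental lines gave either group or whether both came from the same one. T antigen RNA was not analysed here.

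SV40 large T antigen binds p53 and keeps it from acting as a transcription factor, and it binds the Rb family (Rb1, Rbl1 and Rbl2), which otherwise holds E2F factors inactive. E2F factors drive the genes of DNA replication, p53 drives genes of arrest and death, and a repressor complex of Rb-like proteins with the MuvB core acts at CHR elements of genes used in mitosis. Primary MEFs divide for a limited number of passages before p53 and Rb stop them, whereas cells with T antigen go on. The question of the comparison is which RNAs differ between the WT cells of these 2 states.

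The libraries held between 16692411 and 17887312 reads on genes in the primary group (median 17227117). In the immortalized group they held between 17541112 and 17887100 (median 17698255), so depth was alike. Scaled to each library's own total of reads on genes, 3 reads corresponded to between 0.168 and 0.180 CPM. This is the smallest level at which a gene at 0 can be bounded, with counting error alone in view. Between the primary libraries, Pearson's r of log2(CPM + 1) across genes, which are not independent replicates, lay between 0.991 and 0.995. Immortalized libraries 1 and 2 correlated with r = 0.993 and differed by over 1 on the log2 scale in 42 genes. Immortalized library 3 stood apart from both, with r = 0.952 and 0.945 and with 1234 and 1426 genes that differed by over 1. Any primary library with any immortalized library gave r between 0.8799 and 0.9073.

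Library 3 also differed in markers of the sex chromosomes. Ddx3y, a Y-linked RNA helicase, gave 52.8, 55.7 and 58.8 CPM in the primary libraries, 6.24, 4.38 and 101 CPM in immortalized libraries 1, 2 and 3. Xist, the RNA that coats the inactive X chromosome, gave 149, 184 and 196 CPM in the primary and 2012, 1497 and 521 CPM in the immortalized libraries. Libraries 1 and 2 were thus low in Y-linked and high in Xist RNA, which was also the pattern of the primary DKO libraries (the double knockout of Myc and Mlx), where Ddx3y lay between 10.6 and 11.4 CPM and Xist between 555.0 and 574 CPM on a scale set over all 24 libraries. Mean r of libraries 1 and 2 with the immortalized DKO libraries was 0.975 and 0.978, and that of library 3 was 0.942. Myc itself, checked because Myc alleles were left intact, gave 45.8, 37.95 and 168 CPM in immortalized WT libraries 1, 2 and 3, against 4.05 to 7.61 CPM in immortalized DKO and 9.55 to 16.2 CPM in immortalized MycKO libraries on the scale of all 24 libraries. Between the groups, the parental strain, the sex of the pooled embryos, the state of the cells and the exported table cannot be told apart here. Time in culture and blasticidin selection went with the state and cannot be separated from it either. Immortalized libraries 1, 2 and 3 share a labelled state and an exported table, and what sets library 3 apart was not tested. Results are therefore given with library 3 and, where it matters, without it.

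Values are CPM from the recovered reads, scaled over the 6 libraries together, and differences are immortalized minus primary on log2(CPM + 1) with their standard error. Of the genes tested, 46.8% (5955) were called at an adjusted p under 0.05, 3006 higher (23.6%) and 2949 lower (23.2%) in the immortalized cells. Counts of list members called are to be read against these shares. A difference of at least 1 on the log2 scale was called higher for 813 genes (6.39%) and lower for 1382 (10.9%), so the large falls outnumbered the large rises, although by less with the CPM of the separately exported tables (1162 higher and 1197 lower) and over genes with a mean of at least 5 CPM (721 and 799). Group libraries did not overlap for 3853 genes that were higher (30.3%) and 3747 that were lower (29.5%). With the CPM as they stand in the separately exported tables, 62.5% of the calls were higher in immortalized cells rather than 50.5%, and the median difference of all genes moved from 0.00 to 0.13. Without library 3, 8282 genes were called (65.1%; 31.7% higher and 33.4% lower, and 7.57% and 12.2% by at least 2-fold), and 2990 of the 3006 genes called higher and 2947 of the 2949 called lower with all libraries were called in the same direction. The study calls the 3 RNA-Seq libraries of each primary group biological replicates. Neither it nor the labels say which libraries came from separate cultures or embryos, and p-values measure only the spread between these samples, which may in part be technical. In library 3, 44.8% of all genes tested lay below the range of the primary libraries and 44% above it, the shares against which counts of list members in that library are to be read. Where a call or count is given without several libraries, each was left out on its own. For the lists below of which 0 members were called in a direction, other than immediate-early and MHC class I genes, 0 also had an unadjusted p under 0.05 in that direction, and edgeR and DESeq2 likewise called 0.

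**Figure D1:**
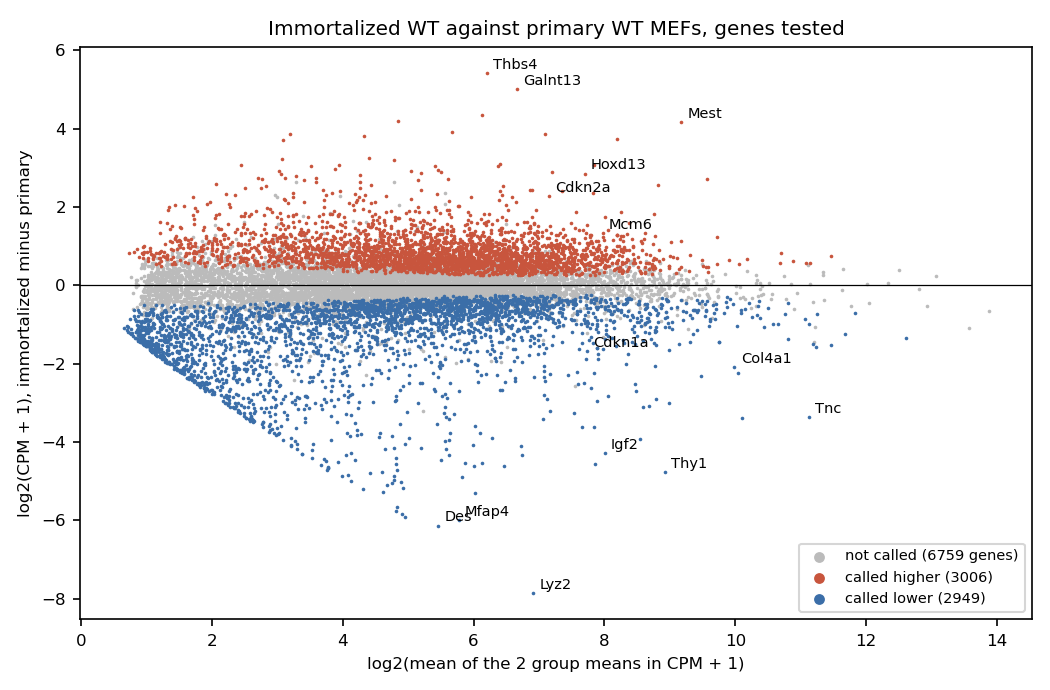
Each point is 1 of the 12714 genes tested, with the log2 of the mean of both group means in CPM + 1 on the x axis and the difference in log2(CPM + 1), immortalized minus primary, on the y axis. Red marks the 3006 genes called higher and blue the 2949 called lower, and the falls reach further from 0 than the rises. For genes with no read in the immortalized libraries, such as Lyz2, the height of the point depends on the pseudocount of 1.

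Because E2F and CHR elements are the DNA letters through which Rb family repression reaches replication and mitosis genes, promoters are shown of the members of these lists with the largest rises that hold such an element in the window. Each sequence covers the 250 bases before the RefSeq start of the gene, taken from RefSeq promoter windows of GRCm38.p6 and placed on GRCm39 by an exact match, 5′ to 3′ on the gene's strand. Capitals mark an E2F 8-mer (TTTCCCGC, TTTCGCGC, TTTGCCGC or TTTGGCGC, on either strand) in the first 3 promoters and the CHR core (TTTGAA, on either strand) in the last 3. In Mcm6 a pair of 8-mers on opposite strands overlap.
Pola1, chrX:92675762-92676011 (minus strand): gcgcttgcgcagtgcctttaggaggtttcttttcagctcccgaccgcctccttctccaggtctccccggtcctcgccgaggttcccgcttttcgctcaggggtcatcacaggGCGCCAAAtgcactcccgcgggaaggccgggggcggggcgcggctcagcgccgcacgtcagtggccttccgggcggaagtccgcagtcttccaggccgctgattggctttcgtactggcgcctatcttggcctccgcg
Mcm6, chr1:128287443-128287692 (minus strand): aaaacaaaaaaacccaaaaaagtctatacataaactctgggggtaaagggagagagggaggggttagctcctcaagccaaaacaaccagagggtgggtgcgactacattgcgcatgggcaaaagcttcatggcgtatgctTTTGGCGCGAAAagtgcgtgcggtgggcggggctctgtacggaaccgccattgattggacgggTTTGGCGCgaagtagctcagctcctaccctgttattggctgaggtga
Rfc3, chr5:151574674-151574923 (minus strand): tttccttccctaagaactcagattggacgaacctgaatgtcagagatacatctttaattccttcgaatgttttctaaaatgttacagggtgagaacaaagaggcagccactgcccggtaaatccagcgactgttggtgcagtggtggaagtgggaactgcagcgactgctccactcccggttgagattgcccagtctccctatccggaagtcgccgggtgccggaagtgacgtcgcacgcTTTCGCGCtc
Ect2, chr3:27208028-27208277 (minus strand): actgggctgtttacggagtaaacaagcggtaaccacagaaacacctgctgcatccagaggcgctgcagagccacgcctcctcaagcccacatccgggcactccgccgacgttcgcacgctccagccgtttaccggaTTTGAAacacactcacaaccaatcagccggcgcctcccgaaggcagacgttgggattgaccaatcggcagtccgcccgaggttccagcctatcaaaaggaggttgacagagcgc
Kif11, chr19:37364580-37364829 (plus strand): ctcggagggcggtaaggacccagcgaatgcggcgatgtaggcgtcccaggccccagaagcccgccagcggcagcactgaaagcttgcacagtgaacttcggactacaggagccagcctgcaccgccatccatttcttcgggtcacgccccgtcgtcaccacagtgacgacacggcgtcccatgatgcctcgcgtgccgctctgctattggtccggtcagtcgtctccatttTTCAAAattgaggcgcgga
Top2a, chr11:98915016-98915265 (minus strand): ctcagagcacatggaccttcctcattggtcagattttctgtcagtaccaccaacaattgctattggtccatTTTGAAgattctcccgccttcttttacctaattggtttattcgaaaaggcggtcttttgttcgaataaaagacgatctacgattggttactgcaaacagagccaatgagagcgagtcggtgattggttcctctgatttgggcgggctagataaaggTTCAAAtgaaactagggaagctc

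In RefSeq windows from 250 bases before to 50 bases after the start, an E2F 8-mer stood at 16 of the 33 matched genes of the G1 and S phase list (48.5%), against 2.60% of all 27025 genes with a window and 4.71% of the genes tested. Mitosis genes held one at 3.70% and collagen genes at 0 of 19. The CHR core stood at 19 of 27 mitosis genes (70.4%), at 12.1% of G1 and S phase genes and at 20.2% of all genes. CCAAT, on either strand, stood at 81.5% of mitosis genes, 66.7% of G1 and S phase genes and 41.1% of all genes. Over the whole comparison, 9.21% of the genes called at least 2-fold higher held an E2F 8-mer (58 of 630), and 2.49% of those called at least 2-fold lower did (25 of 1004). These shares describe letters in a window and were not tested.

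The Rb family and the inhibitors and cyclins around it moved in both directions. Of 18 genes of the Rb family, p53 and their regulators, 6 were called higher and 6 lower, where 23.6% and 23.2% of all genes were. Rbl1 (p107) gave 31.3, 29.7 and 33.6 CPM in the primary and 107, 91.8 and 117 CPM in the immortalized libraries, a rise of 1.70 ± 0.12, adjusted p = 0.00012. Rb1, on chromosome 14 from 73421113 to 73563507, gave 26.7, 25.6 and 26.3 CPM in the primary and 63.0, 47.5 and 54.8 CPM in the immortalized libraries (1.03 ± 0.13, adjusted p = 0.0009). Rbl2 (p130) gave 33.7, 34.6 and 38.3 CPM in the primary and 62.1, 58.8 and 56.7 CPM in the immortalized libraries (0.72 ± 0.1, adjusted p = 0.0015). All 3 pocket protein genes were thus higher in every immortalized library than in any primary one. Trp53, which encodes p53 and lies on chromosome 11 from 69469669 to 69482701, gave 151, 159 and 163 CPM in the primary and 107, 114 and 119 CPM in the immortalized libraries (-0.47 ± 0.085, adjusted p = 0.0044). Mdm2, the ubiquitin ligase of p53 and itself a p53 target, gave 191, 187 and 202 CPM in the primary and 136, 109 and 141 CPM in the immortalized libraries (-0.59 ± 0.12, adjusted p = 0.0065). Its relative Mdm4 had a difference of 0.18 (adjusted p = 0.16), with overlapping libraries. The RNA of p53 and of its own ligase was therefore lower without overlap. With the values corrected for GC content and length of transcripts, Trp53 was no longer called (-0.21, adjusted p = 0.094) and Rb1 had a smaller difference, 0.56.

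Among the inhibitors of cyclin-dependent kinases (CDKs), Cdkn2a, whose transcripts encode p16 and p19Arf and which RB and p53 loss is known to release, rose most. It lies on chromosome 4 from 89192708 to 89212890 and gave 50.3, 46.5 and 45.2 CPM in the primary and 228, 255 and 218 CPM in the immortalized libraries, a difference of 2.28 ± 0.098, adjusted p = 2.3e-05, with the 2 proteins not told apart at the gene level. Cdkn2c (p18) gave 27.7, 29.7 and 21.9 CPM in the primary and 96.7, 119 and 70.2 CPM in the immortalized libraries (1.79 ± 0.21, adjusted p = 0.00078). Cdkn1b (p27) gave 55.1, 58.5 and 67.4 CPM in the primary and 159.6, 153 and 131 CPM in the immortalized libraries (1.28 ± 0.12, adjusted p = 0.00034). These 3 inhibitors rose while Cdkn1a, which encodes p21 and is the best known p53 target, fell. Cdkn1a, on chromosome 17 from 29309936 to 29319701, gave 315, 329 and 314 CPM in the primary and 136, 125 and 56.4 CPM in the immortalized libraries, a difference of -1.68 ± 0.31, adjusted p = 0.0048, and was lowest in library 3. Cdkn1b had a difference of 0.82 after the correction. Cdkn2b (p15) had a difference of -0.24 (adjusted p = 0.13), Cdkn2d (p19Ink4d) of 0.33 (0.16) and Cdkn1c (p57) of -0.018 (0.977). Those 3 did not pass the threshold, and libraries of the groups overlapped for Cdkn2d and Cdkn1c.

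D cyclins and their kinases, which act before the Rb family, were lower or did not pass the test. Ccnd2 gave 653, 722 and 724 CPM in the primary and 209, 192 and 117 CPM in the immortalized libraries (-2.05 ± 0.21, adjusted p = 0.00051). Ccnd3 gave 154, 156 and 151 CPM in the primary and 51.3, 70.3 and 53.1 CPM in the immortalized libraries (-1.40 ± 0.13, adjusted p = 0.00036). Cdk6 gave 48.9, 52.2 and 48.3 CPM in the primary and 30.6, 24.5 and 11.1 CPM in the immortalized libraries (-1.25 ± 0.33, adjusted p = 0.02). Every immortalized library lay below every primary one for these 3 genes, and the call of Cdk6 was lost without primary library 1, 2 or 3 (-1.22 to -1.27). Ccnd1 gave 301, 316 and 289.7 CPM in the primary and 288, 302 and 53.4 CPM in the immortalized libraries (log2 difference -0.85, adjusted p = 0.29), with library 2 within the primary range, library 1 just under it and library 3 far below it. Cdk4 had a difference of -0.20 (adjusted p = 0.15).

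Kinases and cyclins that act after the Rb family were higher. Cdk2 doubled within narrow bounds, from 45.9, 46.3 and 47.7 CPM to 97.9, 96.5 and 94.9 CPM (1.03 ± 0.082, adjusted p = 0.00019). Ccne2, a cyclin E, gave 29.7, 26.5 and 33.5 CPM in the primary and 60.2, 59.4 and 93.2 CPM in the immortalized libraries (1.19 ± 0.19, adjusted p = 0.0029). Ccna2, cyclin A, gave 119.7, 117 and 123 CPM in the primary and 167, 169 and 248 CPM in the immortalized libraries (0.67 ± 0.16, adjusted p = 0.013). The other cyclin E gene, Ccne1, did not follow. It gave 40.3, 38.2 and 39.5 CPM in the primary and 34.2, 36.6 and 36.3 CPM in the immortalized libraries (log2 difference -0.14, adjusted p = 0.27). The mitotic kinase Cdk1 gave 97.1, 101 and 92.6 CPM in the primary and 128, 131 and 183 CPM in the immortalized libraries (0.58 ± 0.15, adjusted p = 0.017). Its cyclins Ccnb1 (0.95, adjusted p = 0.0072) and Ccnb2 (0.59, 0.011) also rose. In most of these genes library 3 was the highest of all. The call of Ccna2 was lost without primary library 1 or 2 (0.65 to 0.67), that of Cdk1 without primary library 1, 2 or 3 (0.55 to 0.61) and that of Ccnb2 without primary library 1 or 2 (0.55 to 0.56). With the correction Ccna2 (0.43, adjusted p = 0.052) and Cdk1 (0.42, 0.057) were not called, and Ccnb1 had a difference of 0.62.

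**Figure D2:**
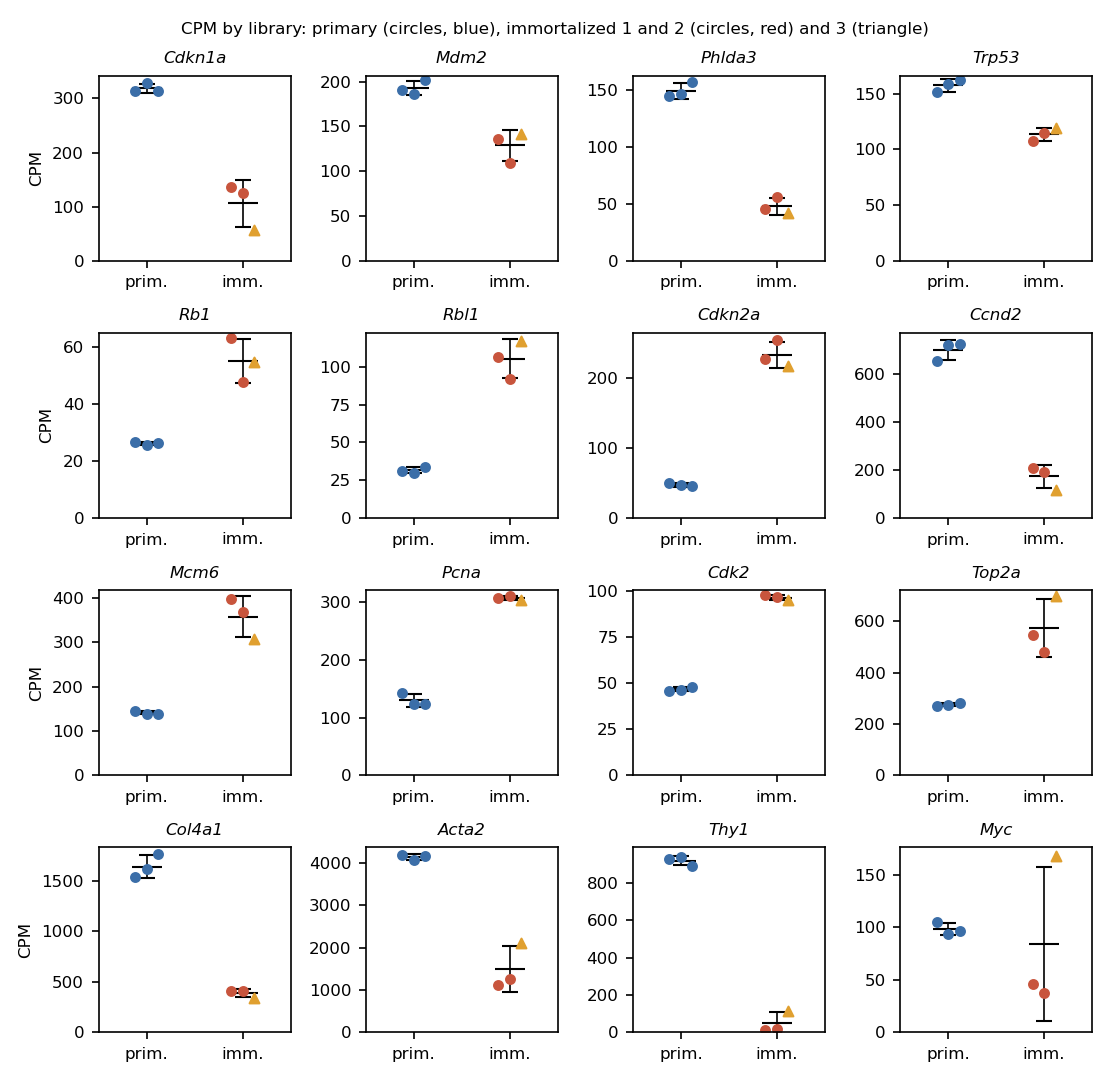
CPM of 16 genes in each of the 6 libraries, with circles for the primary libraries and immortalized libraries 1 and 2, a triangle for immortalized library 3, and a bar and whiskers for the mean ± SD of each group (n = 3). The y axis of each panel is linear, starts at 0 and has its own scale. For Myc the triangle lies above and the circles of libraries 1 and 2 below the primary libraries, whereas for Cdk2, Pcna and Cdkn2a all immortalized libraries lie above.

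E2F targets of G1 and S phase rose as a list, beyond the E2F genes themselves. Of 40 replication genes, 35 were called higher and 0 lower, 14 of them at least 2-fold, with a median log2 difference of 0.84 where all genes had 0.00 and 23.6% of genes were called higher. Rfc4, a clamp loader subunit, gave 13.7, 11.8 and 12.7 CPM in the primary and 36.3, 30.1 and 50.03 CPM in the immortalized libraries (1.505 ± 0.19, adjusted p = 0.0011). Prim1, a primase subunit, gave 20.5, 20.01 and 20.04 CPM in the primary and 48.3, 49.1 and 64.7 CPM in the immortalized libraries (1.36 ± 0.14, adjusted p = 0.00047). Pola1, the catalytic subunit of polymerase alpha whose promoter is printed above, gave 35.0, 32.6 and 34.9 CPM in the primary and 85.4, 75.2 and 106 CPM in the immortalized libraries (1.34 ± 0.14, adjusted p = 0.0005). None of these overlapped between groups, and for all 3 library 3 was highest. Corrected for GC content and length, Pola1 had a difference of 0.78. Mcm6, of the replicative helicase, had 145, 139 and 139 CPM in the primary and 399, 369.9 and 307 CPM in the immortalized libraries (1.33 ± 0.11, adjusted p = 0.00025) and Pcna, the sliding clamp, had 143, 123 and 124 CPM in the primary and 308, 312 and 304 CPM in the immortalized libraries (1.24 ± 0.093, adjusted p = 0.00016). All 6 subunits Mcm2 to Mcm7 were called higher, between 0.81 for Mcm7 and 1.33 for Mcm6. The 5 members that were not called were Ccne1, Mybl2, Cdc25a, Tyms and Chaf1a. Mybl2 (B-Myb) gave 26.2, 25.9 and 23.004 CPM in the primary and 18.6, 18.2 and 38.1 CPM in the immortalized libraries (log2 difference -0.083, adjusted p = 0.83), below the primary range in libraries 1 and 2 and above it in library 3. Without library 3, 35 members were called higher and 1 lower, with a median of 0.69.

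Of the 10 E2F and DP factor genes, 2 were called higher and 0 lower, where 23.6% and 23.2% of all genes were. Without library 3 the calls were 4 higher and 2 lower, and 6 were called higher with library totals or the deposited CPM as the scale. E2f7, an E2F that represses and is itself an E2F target, gave 25.4, 26.4 and 22.8 CPM in the primary and 61.3, 59.1 and 68.8 CPM in the immortalized libraries (1.31 ± 0.11, adjusted p = 0.00024). Tfdp2, a DP partner, gave 26.5, 28.3 and 27.1 CPM in the primary and 63.9, 54.2 and 75.5 CPM in the immortalized libraries (1.20 ± 0.14, adjusted p = 0.0007). E2f1 had a difference of 0.28 (adjusted p = 0.059), E2f3 of 0.27 (0.066), E2f8 of 0.42 (0.054) and Tfdp1 of 0.48 (0.058). These 4 were higher without overlap but missed the threshold. E2f2, E2f4, E2f5 and E2f6 had differences between -0.27 and -0.017, with overlapping libraries.

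Mitosis genes moved the same way by less. Of 32, 23 were called higher and 0 lower, 6 at least 2-fold, with a median of 0.63. The count of 23 was 12, 11 and 14 without primary library 1, 2 or 3, and 16 with the correction for GC content and length. Ect2, an exchange factor of cytokinesis, gave 61.3, 67.7 and 68.7 CPM in the primary and 166, 127 and 254 CPM in the immortalized libraries (1.40 ± 0.23, adjusted p = 0.0032). Nusap1, a spindle protein, gave 30.5, 27.0 and 30.3 CPM in the primary and 68.6, 60.6 and 89.6 CPM in the immortalized libraries (1.27 ± 0.16, adjusted p = 0.00095). Kif11, the bipolar spindle kinesin, gave 72.7, 72.5 and 76.2 CPM in the primary and 157, 141 and 231 CPM in the immortalized libraries (1.21 ± 0.18, adjusted p = 0.002). Library 3 was the highest in each, and the median of the list was 0.98 for library 3 against 0.43 without it. Top2a, which untangles chromosomes, gave 269.5, 272 and 282 CPM in the primary and 546, 479 and 701 CPM in the immortalized libraries (1.05 ± 0.15, adjusted p = 0.0016). The correction lowered the differences of Ect2 to 0.83, Nusap1 to 0.81, Kif11 to 0.69 and Top2a to 0.58, all of them still called. Foxm1, a transcription factor of late cycle genes, gave 93.7, 94.2 and 87.3 CPM in the primary and 106, 107 and 155 CPM in the immortalized libraries and missed the threshold (0.39, adjusted p = 0.081). Plk1, whose kinase starts mitosis, gave 103, 99.9 and 86.4 CPM in the primary and 77.9, 87.3 and 88.7 CPM in the immortalized libraries (-0.18, adjusted p = 0.19) and was the member called lower without library 3.

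Targets of p53 fell as a list. Of 30, 20 were called lower and 3 higher, 10 lower by at least 2-fold, with a median of -0.53 where 23.2% of all genes were called lower. Leaving out any 1 of the primary libraries gave 12 called lower, and the deposited CPM gave 13. Gdf15, a stress cytokine, gave 8.08, 6.12 and 5.67 CPM in the primary and 1.78, 2.53 and 0.115 CPM in the immortalized libraries (-1.77 ± 0.42, adjusted p = 0.013). Phlda3, an Akt inhibitor, gave 144, 146 and 157 CPM in the primary and 45.7, 55.6 and 41.4 CPM in the immortalized libraries (-1.64 ± 0.12, adjusted p = 0.00016). Aen, an apoptosis nuclease, gave 92.4, 99.7 and 89.1 CPM in the primary and 33.7, 29.9 and 39.8 CPM in the immortalized libraries (-1.43 ± 0.13, adjusted p = 0.00028). All libraries of the groups were separate in these genes. Of the death genes, Bbc3 (Puma) gave 15.4, 17.7 and 15.4 CPM in the primary and 6.52, 10.5 and 3.58 CPM in the immortalized libraries (-1.22 ± 0.32, adjusted p = 0.018) and Bax gave 118, 113 and 102 CPM in the primary and 55.4, 69.9 and 40.9 CPM in the immortalized libraries (-1.02 ± 0.19, adjusted p = 0.0049). Pmaip1 (Noxa) fell less (-0.56, adjusted p = 0.019), as did Ccng1 (-0.54, 0.023). The call of Bbc3 was lost without primary library 1, 2 or 3 or immortalized library 1 (-1.16 to -1.25), that of Pmaip1 without primary library 1, 2 or 3 (-0.56) and that of Ccng1 without primary library 1, 2 or 3 or immortalized library 2 (-0.47 to -0.59). Gdf15 was not called without primary library 1 (-1.64) or by edgeR (-2.15). With the correction the differences were -0.47 for Bax, -0.77 for Bbc3 (adjusted p = 0.052), -1.03 for Pmaip1 and -1.10 for Ccng1. With the deposited CPM, Pmaip1 (-0.42) and Ccng1 (-0.40) were not called.

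A few p53 targets went the other way. Sesn1, a sestrin, rose from 13.2, 9.92 and 9.07 to 28.1, 23.6 and 22.2 CPM (1.14 ± 0.18, adjusted p = 0.0023). Rrm2b, a ribonucleotide reductase subunit, rose from 13.6, 14.8 and 14.3 to 33.3, 27.1 and 25.1 CPM (0.94 ± 0.14, adjusted p = 0.002). Tnfrsf10b, a death receptor, rose from 63.3, 61.6 and 69.0 to 145, 116 and 81.1 CPM (0.77 ± 0.20, adjusted p = 0.018). Tnfrsf10b lost its call without primary library 1 or 2 (0.74 to 0.76), and Rrm2b with the correction (0.30, adjusted p = 0.17). Perp gave 10.9, 8.33 and 11.0 CPM in the primary and 91.1, 80.9 and 2.83 CPM in the immortalized libraries and was not called (1.48, adjusted p = 0.32), and libraries 1 and 2 were far above and library 3 below the primary range. In library 3, 26 of the 30 targets lay below the primary range, where 44.8% of all genes did, and 4 above it. Without that library the calls were 20 lower and 5 higher.

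Genes of homologous recombination and the Fanconi pathway, which mend breaks and crosslinks with the sister chromatid as template, rose together. Of 22 tested, 18 were called higher and 0 lower, and all 22 had every immortalized library above every primary one, with a median of 0.76. Over all genes 23.6% were called higher and 30.3% were higher without overlap. Brca2, a core factor of recombination, gave 12.3, 12.98 and 12.1 CPM in the primary and 44.4, 37.5 and 48.0 CPM in the immortalized libraries (1.71 ± 0.13, adjusted p = 0.00016). Rad54b, a DNA translocase of recombination, gave 5.48, 7.99 and 7.65 CPM in the primary and 21.2, 21.9 and 27.8 CPM in the immortalized libraries (1.62 ± 0.19, adjusted p = 0.00073). Bard1, the partner of Brca1, gave 11.5, 11.4 and 12.0 CPM in the primary and 34.1, 28.6 and 37.9 CPM in the immortalized libraries (1.44 ± 0.14, adjusted p = 0.00039). Brca1 itself rose by less, from 22.8, 23.1 and 19.98 to 41.4, 34.8 and 45.4 CPM (0.85 ± 0.14, adjusted p = 0.0027). With the correction for GC content and length, 14 of the 22 were called higher and the median was 0.53. The differences were then 1.079 for Brca2 and 0.52 for Brca1. Without the correction, Xrcc3, Palb2, Xrcc2 and Fancb were the members not called. Of the other break repair route, 3 of 11 genes of non-homologous end-joining were called higher and 0 lower, with a median of 0.18, a share near the 23.6% of all genes. The 3 were Xrcc5 (Ku80, 0.96), Xrcc4 (0.95) and Prkdc (0.69), with adjusted p = 0.0021, 0.0024 and 0.012. Only 1 of the 11, Xrcc5, was called with the correction, where Xrcc4 had 0.48 and Prkdc 0.12, and Prkdc also lost its call without primary library 2 (0.67).

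The kinases and adaptors that signal DNA damage rose in 10 of 17 genes, with 0 lower and a median of 0.72. Chek1, which holds the cycle when forks stall, gave 12.9, 12.6 and 12.9 CPM in the primary and 30.5, 27.0 and 43.4 CPM in the immortalized libraries (1.30 ± 0.18, adjusted p = 0.0016). Atm, which responds to breaks, gave 33.3, 37.3 and 33.5 CPM in the primary and 94.6, 71.7 and 91.4 CPM in the immortalized libraries (1.28 ± 0.13, adjusted p = 0.00049). Topbp1, the activator of Atr, gave 127, 134 and 145 CPM in the primary and 274, 235 and 357 CPM in the immortalized libraries (1.07 ± 0.16, adjusted p = 0.0019). No library of one group reached the other in these. With values corrected for transcript GC content and length the list's median fell to 0.40, still with 10 called higher, and Chek1 had 0.53 and Atm 0.67. In mismatch and excision repair, 9 of 25 were called higher and 2 lower, with 5 higher without primary library 1 or without primary library 2. Neil3, a glycosylase, rose by 1.26 ± 0.16, adjusted p = 0.0011, and Msh3, a mismatch repair gene, by 1.26 ± 0.15, adjusted p = 0.00076. Ercc1, an excision nuclease subunit, fell from 30.3, 29.8 and 21.3 to 11.7, 11.9 and 16.3 CPM (-0.98 ± 0.19, adjusted p = 0.0063), and Ddb1 fell from 1043, 1056 and 1015 to 815, 805 and 896 CPM (-0.31 ± 0.10, adjusted p = 0.046). The call of Ddb1 was lost without primary library 1, 2 or 3 or immortalized library 1 or 2 (-0.28 to -0.32), with library totals or deposited CPM as the scale (-0.17 for the latter) and with the correction (-0.20).

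Of 13 telomerase and shelterin genes, 4 of the telomerase complex were called lower and 3 of shelterin, the cap of the chromosome end, were called higher. Over all genes 23.2% were called lower and 23.6% higher, and the count of 3 was 1 without primary library 2 or immortalized library 1. Tert, the reverse transcriptase subunit, gave 4.89, 5.90 and 4.87 CPM in the primary and 1.28, 0.897 and 1.62 CPM in the immortalized libraries (-1.47 ± 0.18, adjusted p = 0.00096). Gar1, one of its RNA-binding partners, gave 19.9, 18.9 and 17.0 CPM in the primary and 5.80, 6.91 and 8.83 CPM in the immortalized libraries (-1.27 ± 0.18, adjusted p = 0.0014). Nhp2 (-1.14, adjusted p = 0.008) and Nop10 (-0.73, 0.0091), which also serve ribosomal RNA modification, were lower. Pot1a, which caps the telomere end, gave 12.1, 12.98 and 15.4 CPM in the primary and 22.9, 22.1 and 26.9 CPM in the immortalized libraries (0.79 ± 0.15, adjusted p = 0.0048), and Pot1b (0.62, 0.017) and Tinf2 (0.37, 0.04) were also higher. Pot1b lost its call without primary library 2 or immortalized library 1 (0.51 to 0.60) and with the correction (0.31), which also lowered Pot1a to 0.36 and moved Gar1 to -0.85. Tinf2 lost its call without primary library 1, 2 or 3 or immortalized library 1 or 2 (0.29 to 0.41). The other telomerase genes, Dkc1 (0.11, adjusted p = 0.78) and Wrap53 (0.18, 0.45), were not called.

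In the extended Myc network, the factors that bind E-boxes as dimers with Max or Mlx, 11 of 13 genes were tested, and 2 were called higher and 2 lower. The shares of all genes called higher and lower were 23.6% and 23.2%. Myc gave 105, 93.8 and 96.9 CPM in the primary and 45.8, 37.95 and 168 CPM in the immortalized libraries (log2 difference -0.56, adjusted p = 0.4). Libraries 1 and 2 lay below and library 3 above all primary libraries, and without library 3 the difference was -1.25 (adjusted p = 2.1e-06). Mycl gave 7.78, 6.35 and 7.89 CPM in the primary and 0.223, 0.369 and 2.37 CPM in the immortalized libraries (-2.22 ± 0.38, adjusted p = 0.0035). Max, the common partner of Myc, gave 70.7, 65.4 and 68.0 CPM in the primary and 52.6, 46.2 and 55.7 CPM in the immortalized libraries (-0.40 ± 0.10, adjusted p = 0.018). Mxd1, a Max partner that represses, gave 8.55, 7.14 and 8.82 CPM in the primary and 15.3, 17.6 and 10.4 CPM in the immortalized libraries (0.73 ± 0.21, adjusted p = 0.027), and Mga gave 68.3, 75.3 and 80.7 CPM in the primary and 118, 94.2 and 122 CPM in the immortalized libraries (0.56 ± 0.13, adjusted p = 0.011), with a difference of -0.075 after adjustment for GC content and length. The call of Max was lost without primary library 1, 2 or 3 (-0.37 to -0.43) and with the deposited CPM (-0.26), that of Mxd1 without primary library 1, 2 or 3 or immortalized library 1 or 2 (0.58 to 0.78) and that of Mga without primary library 1 (0.50). Mlx, the partner in the parallel branch, gave 27.2, 21.4 and 25.9 CPM in the primary and 23.9, 22.3 and 19.4 CPM in the immortalized libraries (-0.17, adjusted p = 0.35). Mlxip (MondoA) had a difference of -0.066 (adjusted p = 0.63), Mnt of 0.0012 (0.998), Mxi1 of 0.18 (0.28), Mxd3 of 0.30 (0.28) and Mxd4 of -0.058 (0.85). Mycn and Mlxipl (ChREBP) did not reach the minimum level and were not tested.

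RNA for the extracellular matrix was lower over several lists. Of 23 collagen chains, 18 were called lower and 0 higher, 15 by at least 2-fold, with a median of -1.46. Col2a1, the cartilage collagen, gave 59.1, 73.1 and 73.1 CPM in the primary and 3.90, 3.96 and 1.38 CPM in the immortalized libraries (-4.16 ± 0.30, adjusted p = 0.00013). Col7a1, of anchoring fibrils, gave 149, 150.2 and 130.4 CPM in the primary and 6.19, 4.86 and 20.9 CPM in the immortalized libraries (-3.88 ± 0.46, adjusted p = 0.0008). Col15a1, a basement membrane collagen, gave 12.7, 18.2 and 20.04 CPM in the primary and 0.167, 1.06 and 0.173 CPM in the immortalized libraries (-3.65 ± 0.28, adjusted p = 0.00017). The basement membrane pair Col4a1 and Col4a2 had differences of -2.08 ± 0.12, adjusted p = 6.4e-05 and -2.32 ± 0.11, adjusted p = 2.8e-05, and in both the 3 immortalized libraries were close to each other. Col1a1, the main chain of type I collagen, gave 17904, 17924 and 18442 CPM in the primary and 13836, 14651 and 7313 CPM in the immortalized libraries and was not called (-0.67, adjusted p = 0.16), although no library of the groups overlapped. Its partner chain Col1a2 was called, with 8547, 8649 and 9785 CPM in the primary and 3891, 3683 and 3081 CPM in the immortalized libraries (-1.34 ± 0.20, adjusted p = 0.0018).

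Of 26 matrix glycoproteins, proteoglycans and crosslinking enzymes, 14 were called lower and 1 higher, with a median of -0.89. Mfap4, of elastic microfibrils, gave 101, 109 and 109 CPM in the primary and 0.502, 1.16 and 0.462 CPM in the immortalized libraries (-6.00 ± 0.18, adjusted p = 1.2e-05). Dcn (decorin) gave 186, 195 and 214 CPM in the primary and 15.6, 12.98 and 5.77 CPM in the immortalized libraries (-4.10 ± 0.31, adjusted p = 0.00016). Lum (lumican) gave 111, 108 and 137 CPM in the primary and 7.02, 7.81 and 3.98 CPM in the immortalized libraries (-4.07 ± 0.23, adjusted p = 6.2e-05). Tnc (tenascin C) fell from 4006, 4208 and 3841 CPM to 241, 289 and 854 CPM (-3.36 ± 0.44, adjusted p = 0.0012). A related small proteoglycan went the other way, since Ogn (osteoglycin) gave 113, 109.5 and 158 CPM in the primary and 999, 772 and 541 CPM in the immortalized libraries (2.57 ± 0.24, adjusted p = 0.00037, or 1.70 with the correction for GC content and length). Fibronectin, Fn1, was not called (-0.52, adjusted p = 0.075), and neither was Lox, a crosslinking enzyme (0.39, 0.13). Of 20 matrix proteases and inhibitors 13 were called lower and 1 higher, with a median of -0.77. Mmp9, a gelatinase, gave 54.7, 50.9 and 35.4 CPM in the primary and 0.390, 0.211 and 0.0577 CPM in the immortalized libraries (-5.28 ± 0.21, adjusted p = 2e-05). Mmp13 gave 38.3, 43.5 and 38.5 CPM in the primary and 0.0557, 0.211 and 1.5003 CPM in the immortalized libraries (-4.80 ± 0.32, adjusted p = 0.0001) and Mmp3 gave 185, 165 and 146 CPM in the primary and 2.40, 3.54 and 18.98 CPM in the immortalized libraries (-4.62 ± 0.61, adjusted p = 0.0012), both of these secreted collagen-degrading or matrix-degrading enzymes. Serpine2, a protease inhibitor, was the gene called higher (0.90 ± 0.12, adjusted p = 0.0014).

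Contractile and smooth muscle genes were lower in 16 of 18 and higher in 0, with a median of -1.51. Des (desmin) gave 89.3, 85.9 and 80.9 CPM in the primary and 0.613, 0.158 and 0 CPM in the immortalized libraries (-6.13 ± 0.20, adjusted p = 1.2e-05). Mylk, the myosin light chain kinase, gave 50.5, 49.0 and 57.8 CPM in the primary and 1.95, 2.38 and 0.577 CPM in the immortalized libraries (-4.41 ± 0.29, adjusted p = 9.2e-05). Myh11, smooth muscle myosin, gave 35.2, 36.2 and 25.04 CPM in the primary and 1.06, 0.845 and 0.289 CPM in the immortalized libraries (-4.27 ± 0.24, adjusted p = 5.7e-05). Acta2, the actin of myofibroblasts, gave 4191, 4072 and 4172 CPM in the primary and 1124, 1265 and 2121 CPM in the immortalized libraries (-1.52 ± 0.25, adjusted p = 0.0029). Tagln (transgelin) gave 1900.3, 1828 and 1399 CPM in the primary and 222, 296 and 688 CPM in the immortalized libraries (-2.25 ± 0.39, adjusted p = 0.0039). Library 3 was the highest immortalized library for both of the latter, yet below every primary library. Srf, the factor that drives such genes, was not called (-0.45, adjusted p = 0.068), and its coactivator Myocd fell from 2.06, 2.15 and 1.91 to 0.0557, 0.158 and 0.404 CPM (-1.34 ± 0.17, adjusted p = 0.001).

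Of 26 TGF-beta, BMP and IGF genes 14 were called lower and 1 higher, with a median just above -1, at -0.9998, or -0.63 with the correction for GC content and length. Igf2, a growth factor of the embryo, gave 452, 475 and 532 CPM in the primary and 21.2, 23.5 and 28.1 CPM in the immortalized libraries (-4.28 ± 0.13, adjusted p = 1.2e-05), and 97.1% of its 50-base stretches also stand in another annotated gene's transcript, so its reads could be split. Igfbp7 gave 728, 689 and 663 CPM in the primary and 39.9, 33.6 and 67.6 CPM in the immortalized libraries (-3.92 ± 0.24, adjusted p = 7.3e-05) and Igfbp2 gave 467, 413 and 368 CPM in the primary and 17.5, 24.4 and 81.9 CPM in the immortalized libraries (-3.61 ± 0.51, adjusted p = 0.0016), both encoding secreted proteins of the IGF-binding family. Igf1 fell from 45.6, 46.4 and 50.2 to 8.81, 8.87 and 1.56 CPM (-2.95 ± 0.50, adjusted p = 0.0034). Bmp2 was the gene called higher, from 0.177, 0.510 and 0.555 to 3.68, 5.12 and 1.10 CPM (1.48 ± 0.39, adjusted p = 0.019), and its call was lost without primary library 1 or 2 or immortalized library 1 (1.35 to 1.53). Receptor genes named here were not called, with differences of 0.16 for Igf1r, 0.21 for Tgfbr1 and -0.051 for Tgfbr2 (adjusted p = 0.36, 0.17 and 0.69).

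Imprinted genes, which are transcribed from the copy of only one parent, moved by large steps in both directions. Of 13, 7 were called lower and 3 higher, where 23.2% and 23.6% of all genes were. Peg3 gave 126, 129 and 142 CPM in the primary and 2.45, 4.22 and 9.69 CPM in the immortalized libraries (-4.53 ± 0.37, adjusted p = 0.00022). Meg3, a noncoding RNA, gave 349, 374 and 382 CPM in the primary and 41.4, 50.4 and 11.8 CPM in the immortalized libraries (-3.61 ± 0.48, adjusted p = 0.0013). H19, the noncoding neighbour of Igf2, gave 613, 623 and 554 CPM in the primary and 104, 79.9 and 136 CPM in the immortalized libraries (-2.51 ± 0.19, adjusted p = 0.00015), so both genes of that locus were lower. Mest, a hydrolase-like protein, gave 30.7, 35.2 and 42.7 CPM in the primary and 1615, 1629 and 109 CPM in the immortalized libraries (4.16 ± 0.99, adjusted p = 0.013), with library 3 far closer to the primary libraries than the other two and a difference of 5.43 without it. Peg10 gave 29.8, 31.4 and 33.6 CPM in the primary and 196, 159 and 120.1 CPM in the immortalized libraries (2.26 ± 0.18, adjusted p = 0.00018) and Plagl1, a transcription factor, gave 68.6, 71.0 and 95.7 CPM in the primary and 376, 325 and 195 CPM in the immortalized libraries (1.878 ± 0.25, adjusted p = 0.0014). In these 3 genes every immortalized library was above every primary one.

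Hox genes, the transcription factors whose order along each cluster follows the body axis, split by cluster and by position. Of 34 tested, 9 were called higher and 16 lower, where 23.6% and 23.2% of all genes were. In the Hoxb cluster 8 of 8 were lower (median -1.98), and in Hoxc genes 1 to 8 the count was 4 of 4 (median -3.35). Hoxc6 gave 21.4, 21.5 and 19.98 CPM in the primary and 0.167, 0.317 and 0.115 CPM in the immortalized libraries (-4.198 ± 0.15, adjusted p = 1.4e-05). Hoxc8 gave 15.2, 17.0 and 16.7 CPM in the primary and 0.223, 0 and 0.289 CPM in the immortalized libraries (-3.89 ± 0.17, adjusted p = 2.3e-05). Hoxc9 gave 9.91, 10.4 and 10.2 CPM in the primary and 0, 0.264 and 0.635 CPM in the immortalized libraries (-3.13 ± 0.21, adjusted p = 9.7e-05). Little of these RNAs remained in any immortalized library. At the 5′ ends of the Hoxa and Hoxd clusters the sign was the opposite, with 4 of 4 higher in Hoxa genes 9 to 13 (median 1.41) and 4 of 5 in Hoxd genes 9 to 13 (median 2.19). Hoxd13, the last gene of its cluster, gave 46.4, 48.2 and 47.4 CPM in the primary and 446, 439 and 214 CPM in the immortalized libraries (2.85 ± 0.27, adjusted p = 0.00039). Hoxd10 gave 3.83, 4.195 and 4.995 CPM in the primary and 42.5, 39.4 and 13.7 CPM in the immortalized libraries (2.48 ± 0.41, adjusted p = 0.0029). Hoxa13 gave 7.96, 6.35 and 7.71 CPM in the primary and 50.4, 48.3 and 25.3 CPM in the immortalized libraries (2.29 ± 0.27, adjusted p = 0.00078). Rises were smaller in library 3 than in libraries 1 and 2 for each of these 3 genes, without overlap with the primary libraries. Hoxc genes 11 to 13 were highest in library 3, with 1.62, 2.90 and 9.75 CPM of Hoxc13 in immortalized libraries 1, 2 and 3 (1.124, adjusted p = 0.095).

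Some limb genes, chosen after their own values were seen, are given as a description of the immortalized libraries. Tbx5, a marker of the forelimb and heart, gave 4.84, 5.95 and 7.401 CPM in the primary and 0, 0.158 and 24.2 CPM in the immortalized libraries. Tbx4, a hindlimb factor, gave 15.9, 16.3 and 12.8 CPM in the primary and 41.0, 44.0 and 7.39 CPM in the immortalized libraries. Pitx1, which acts with it in the hindlimb, gave 12.6, 12.7 and 11.8 CPM in the primary and 31.6, 32.2 and 7.50 CPM in the immortalized libraries. Libraries 1 and 2 were above the primary range for Tbx4 and Pitx1 and at or near 0 for Tbx5, and library 3 showed the converse. Evx2, the neighbour of Hoxd13, rose by 3.06 ± 0.43, adjusted p = 0.0016, and Hand2, another limb and heart factor, fell from 4.89, 3.97 and 5.80 to 0.0557, 0.264 and 0.866 CPM (-2.11 ± 0.25, adjusted p = 0.00082).

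Interferon-stimulated genes gave a case in which 1 library decided the result. Of 33, only 2 were called higher and 1 lower with all libraries. Without library 3, 29 were called higher and 2 lower, with a median of 1.38 where 31.7% of all genes were called higher. In library 3, 31 of the 33 lay below the primary range, where 44.8% of all genes did, with a median of -2.117. Ifit1, which binds viral RNA, gave 58.1, 38.3 and 51.2 CPM in the primary and 274, 332 and 7.27 CPM in the immortalized libraries (0.88, adjusted p = 0.61). Rsad2 (viperin) gave 3.30, 1.93 and 2.28 CPM in the primary and 78.6, 73.1 and 0.692 CPM in the immortalized libraries (2.64, adjusted p = 0.16). For both of these, libraries 1 and 2 lay above and library 3 below all primary libraries. Ifit2 was called with all libraries, from 26.7, 27.4 and 26.1 to 114, 109 and 54.2 CPM (1.68 ± 0.27, adjusted p = 0.0028), and so was the DNA sensor Cgas, from 11.2, 13.2 and 11.5 to 21.8, 21.3 and 25.1 CPM (0.87 ± 0.13, adjusted p = 0.0023), whereas Sting1, its adaptor, fell from 45.6, 50.3 and 43.9 to 33.6, 34.0 and 28.2 CPM (-0.54 ± 0.12, adjusted p = 0.0097), a call that was lost without primary library 2 (-0.48).

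Genes of MHC class I presentation followed the same division. Of 13, limma called 0 higher and 1 lower with all libraries (1 higher at an unadjusted p under 0.05, and 1 each by edgeR and DESeq2), and 7 higher and 2 lower without library 3, where 31.7% and 33.4% of all genes were called. In library 3, 12 of the 13 lay below the primary range, against 44.8% of all genes. H2-D1, a classical heavy chain, was the gene called, with 412, 345 and 316 CPM in the primary and 174, 224 and 85.6 CPM in the immortalized libraries (-1.24 ± 0.33, adjusted p = 0.02), and it was not called without primary library 1, 2 or 3 (-1.14 to -1.33). Of 25 chemokines, cytokines and complement genes, 13 were called lower and 2 higher, with a median of -1.20. Cxcl14, a chemokine, gave 52.3, 53.01 and 51.0 CPM in the primary and 0.279, 0.528 and 2.02 CPM in the immortalized libraries (-4.88 ± 0.31, adjusted p = 8.6e-05). Serping1, the inhibitor of C1, gave 32.0, 28.1 and 33.5 CPM in the primary and 1.39, 2.06 and 0.519 CPM in the immortalized libraries (-3.85 ± 0.26, adjusted p = 0.00011). Ccl9 gave 21.2, 18.9 and 12.95 CPM in the primary and 1.67, 0.950 and 2.31 CPM in the immortalized libraries (-2.83 ± 0.26, adjusted p = 0.00034). These fell in every immortalized library. Cxcl10, which interferon induces, rose from 2.123, 2.27 and 2.41 to 32.0, 28.1 and 4.62 CPM (2.43 ± 0.64, adjusted p = 0.019), and Cxcl5 rose from 48.3, 48.5 and 38.6 to 94.9, 78.9 and 364 CPM (1.62 ± 0.53, adjusted p = 0.042, or 0.90 without library 3). Cxcl10 was not called without primary library 1, 2 or 3 or immortalized library 1 or 2 (1.97 to 2.46), nor Cxcl5 without primary library 1, 2 or 3 or immortalized library 1 (1.51 to 1.90) or with the correction (0.97).

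**Figure D3:**
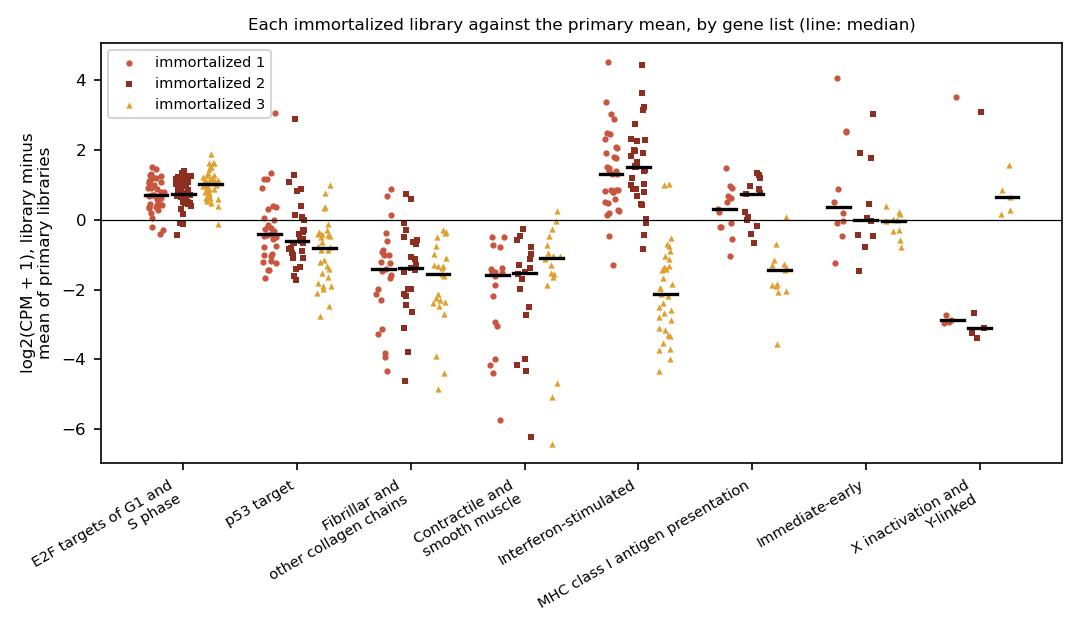
Difference of each immortalized library from the mean of the primary libraries in log2(CPM + 1) (y axis) for the tested members of 8 lists, with a black line at the median of each library. The 3 libraries lie on the same side of 0 for replication, p53 target, collagen and contractile genes, while for interferon-stimulated genes library 3 lies below 0 (median -2.117) and libraries 1 and 2 above it.

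Glycolysis genes were lower as a list. Of 21 genes of glycolysis and glucose uptake, 17 were called lower and 1 higher, with a median of -0.75, and 11 were called lower without primary library 1 or without primary library 2. Slc16a3, the lactate exporter Mct4, gave 97.0, 89.6 and 69.8 CPM in the primary and 5.74, 6.18 and 11.3 CPM in the immortalized libraries (-3.35 ± 0.25, adjusted p = 0.00016). Pfkl, a phosphofructokinase, gave 115, 118 and 99.8 CPM in the primary and 34.5, 41.0 and 48.9 CPM in the immortalized libraries (-1.41 ± 0.15, adjusted p = 0.00049). Txnip, which responds to glucose through MondoA and Mlx, gave 127, 121 and 137 CPM in the primary and 57.8, 70.7 and 32.1 CPM in the immortalized libraries (-1.32 ± 0.27, adjusted p = 0.0067). Its paralog Arrdc4 also fell (-0.94 ± 0.28, adjusted p = 0.031), though it was not called without primary library 1, 2 or 3 (-0.88 to -0.99). Gapdh gave 1513, 1504 and 1192 CPM in the primary and 683, 728 and 622 CPM in the immortalized libraries (-1.04 ± 0.14, adjusted p = 0.0013), and 82.5% of its 50-base stretches also stand in transcripts of other annotated genes, so its reads could be split. The transporter Slc16a1 (Mct1) was the gene called higher, from 49.8, 44.6 and 46.5 to 100.2, 79.4 and 108 CPM (1.005 ± 0.13, adjusted p = 0.0012). Glucose transporter Slc2a1 was lower by little (-0.29 ± 0.083, adjusted p = 0.025), and its call was lost without primary library 1, 2 or 3 or immortalized library 2 (-0.27 to -0.32). With the correction for GC content and length the differences were -0.66 for Gapdh, 0.60 for Slc16a1 and, not called, -0.14 for Slc2a1, which was not called with the deposited CPM either (-0.15).

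Of 20 sterol synthesis genes 5 were called higher and 1 lower, with a median of 0.29, a share near the 23.6% of all genes called higher. The count of 5 was 3 without primary library 1 or 2 or immortalized library 1, 9 and 8 without immortalized library 2 or 3, and 11 with library totals or the deposited CPM as the scale. Insig1, which holds the sterol sensor in the endoplasmic reticulum, gave 107, 96.8 and 112 CPM in the primary and 345, 263 and 243 CPM in the immortalized libraries (1.40 ± 0.15, adjusted p = 0.0005). Idi1 (0.95, adjusted p = 0.011) and Hmgcs1 (0.69, 0.0037), both enzymes of the pathway, rose by less, and Mvd fell (-0.63, 0.0086), none of these 3 being called with the correction for GC content and length (0.32, 0.19 and -0.20). In nucleotide synthesis, 6 of 19 were called higher and 3 lower, where 23.6% and 23.2% of all genes were, and without library 3 the counts were 6 and 9. Prps2, which makes the ribose phosphate donor, gave 24.9, 27.1 and 30.4 CPM in the primary and 72.3, 67.6 and 57.0 CPM in the immortalized libraries (1.22 ± 0.13, adjusted p = 0.00056). Paics (0.80, adjusted p = 0.0016) and Gmps (0.79, 0.0099), of purine synthesis, rose. Impdh1, of guanine nucleotide synthesis, gave 64.5, 61.0 and 54.1 CPM in the primary and 18.3, 22.4 and 22.3 CPM in the immortalized libraries (-1.47 ± 0.13, adjusted p = 0.00026), and Shmt2 (-0.59, 0.0037) and Atic (-0.41, 0.022) fell. With the correction Gmps (0.0015) and Shmt2 (-0.22) were not called and Prps2 had 0.67, and Atic was not called without primary library 1 or 2 or immortalized library 1 or 2 (-0.34 to -0.40) or with the deposited CPM (-0.27).

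RNAs of the mitochondrial genome were called higher in 3 of 13 and lower in 1, where 23.6% of all genes were called higher, with a median of 0.27. The count of 3 fell to 0 without primary library 1 or 2 or immortalized library 1 and was 6 without immortalized library 3. With the correction for GC content and length it was also 0, 3 were called lower and the median was -0.25. mt-Nd4, a subunit of complex I, gave 1544, 1464 and 2236 CPM in the primary and 2747, 2340.1 and 2616 CPM in the immortalized libraries (0.58 ± 0.20, adjusted p = 0.047), and was not called without primary library 1 or 2 or immortalized library 1 or 2 (0.46 to 0.64) or with the correction (-0.15). The gene called lower, mt-Atp8, overlaps mt-Atp6, which was called higher, so reads of the pair could be split. Of 10 immediate-early genes, 0 were called by limma with all libraries (2 higher at an unadjusted p under 0.05, 1 called higher by edgeR and 2 by DESeq2), and 4 were called higher and 2 lower without library 3. Fosb, a partner of Jun, gave 8.43, 12.6 and 6.35 CPM in the primary and 161, 79.5 and 8.89 CPM in the immortalized libraries, with library 3 inside the primary range.

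Cell type markers were examined because MEF cultures can hold other cells. Macrophage markers were lower in 15 of 15, and their summed level was between 382 and 743 CPM in the primary and between 7.36 and 8.31 CPM in the immortalized libraries. Lyz2 (lysozyme) gave 312, 244 and 160.3 CPM in primary libraries and 0 reads in all 3 immortalized libraries, which makes it at least 1436-fold lower with 3 reads in each immortalized library as the floor. C1qb, a complement subunit, also gave 0 reads in the immortalized libraries and was at least 226-fold lower than the primary mean. Csf1r, the receptor on which macrophages depend, gave 66.6, 54.9 and 36.2 CPM in the primary and 0.669, 0.158 and 1.38 CPM in the immortalized libraries (-4.97 ± 0.32, adjusted p = 9e-05). The list's median was -4.44, or -4.36 with genes without reads at their floor. In bulk RNA, fewer cells of a type and less RNA per cell cannot be told apart.

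Of 15 fibroblast markers, 9 were called lower and 0 higher, with a median of -1.34. Thy1, a surface marker of fibroblasts, gave 929, 936 and 891 CPM in the primary and 14.2, 20.1 and 117 CPM in the immortalized libraries (-4.78 ± 0.70, adjusted p = 0.0018), and Pdgfrb, a receptor of mesenchymal cells, gave 495, 527 and 536 CPM in the primary and 172, 194 and 186 CPM in the immortalized libraries (-1.49 ± 0.091, adjusted p = 7.3e-05). Fap, a surface protease of activated fibroblasts, fell from 17.7, 20.7 and 25.1 to 0.780, 0.739 and 5.08 CPM (-3.05 ± 0.48, adjusted p = 0.0025). Vim, the intermediate filament of mesenchymal cells, was not called, with 4175, 3897 and 4226 CPM in the primary and 4417, 4415 and 3723 CPM in the immortalized libraries (0.026, adjusted p = 0.91), which left this marker high in all 6 libraries. Of the endothelial markers 2 of 10 were tested, and both were lower, Flt1 with 112, 128 and 133 CPM in the primary and 2.118, 0.686 and 4.96 CPM in the immortalized libraries (-5.31 ± 0.42, adjusted p = 0.00018) and Kdr with 13.2, 13.4 and 13.5 CPM in the primary and 2.40, 3.01 and 2.13 CPM in the immortalized libraries (-2.04 ± 0.15, adjusted p = 0.00016). Pecam1, Cdh5 and the other endothelial markers did not reach the minimum level. Among 10 neural and glial markers 7 were lower and 2 higher, with Ngfr, a receptor of neural crest and Schwann cells, at 16.7, 20.8 and 18.7 CPM in primary libraries and without reads in immortalized ones (at least 113-fold lower), Tubb3 at 53.2, 57.0 and 46.9 CPM in the primary and 2.01, 2.69 and 7.44 CPM in the immortalized libraries (-3.55 ± 0.37, adjusted p = 0.0005), and Map2, a microtubule protein, at 12.9, 17.7 and 17.6 CPM in the primary and 191, 179.7 and 84.2 CPM in the immortalized libraries (3.09 ± 0.32, adjusted p = 0.00048). Krt8 (-2.84) and Krt18 (-3.13), simple epithelial keratins, were lower, while Trp63, a p53 relative of stratified epithelia, rose from 0.177, 0.0567 and 0 to 3.29, 2.64 and 7.44 CPM (2.24 ± 0.32, adjusted p = 0.0016). The muscle markers Tnnt2 (-2.16) and Pax3 (-0.81, not called without primary library 1, 2 or 3 or immortalized library 1 or 2 (-0.65 to -0.90)) were lower, and of 8 cartilage and bone markers 4 were lower and 1, Runx2, higher (0.70 ± 0.11, adjusted p = 0.0022). Of the 4 adipocyte markers tested, Pparg rose from 4.84, 3.005 and 3.64 to 25.3, 34.7 and 15.98 CPM (2.40 ± 0.29, adjusted p = 0.00089) and Lpl fell from 52.96, 55.7 and 63.3 to 2.45, 3.01 and 2.13 CPM (-4.05 ± 0.15, adjusted p = 1.7e-05). The part of such cells in the differences above was not tested.

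Over all genes the largest log2 rise was that of Thbs4 (thrombospondin 4), on chromosome 13 from 92888095 to 92931501, which gave 2.36, 2.32 and 2.28 CPM in the primary and 124, 173 and 130.3 CPM in the immortalized libraries (5.42 ± 0.16, adjusted p = 1.2e-05). Galnt13, a glycosyltransferase on chromosome 2 from 54326223 to 55008321, gave 4.13, 4.14 and 5.98 CPM in the primary and 252, 235 and 99.6 CPM in the immortalized libraries (4.997 ± 0.35, adjusted p = 0.00012). Penk (proenkephalin) gave 5.84, 5.10 and 3.52 CPM in the primary and 134, 211 and 54.1 CPM in the immortalized libraries (4.34 ± 0.46, adjusted p = 0.00054). Hapln1, a link protein of hyaluronan matrix, gave 1.83, 1.64 and 1.91 CPM in the primary and 68.0, 63.9 and 29.1 CPM in the immortalized libraries (4.199 ± 0.32, adjusted p = 0.00016), with library 3 lower than the other two in Galnt13, Penk and Hapln1. Omd (osteomodulin, 3.92), Sema3d (3.86), Klra4 (3.85), Lrrtm3 (3.80), Sfrp2 (3.73) and Mest completed the 10 largest rises, with predicted genes, pseudogenes and antibody genes left out. Sema3d was as high in library 3 as in the others, with 16.1, 15.8 and 17.7 CPM in the primary and 282, 215 and 266 CPM in the immortalized libraries (3.86 ± 0.12, adjusted p = 1.2e-05). By the same rule the 10 largest falls held Lyz2, Des, Mfap4, Laptm5, Flt1, Mmp9, C1qb, Plac8, Lilrb4a and Syt13. Plac8 gave 67.0, 53.9 and 59.3 CPM in the primary libraries and 1 read over the 3 immortalized libraries (adjusted p = 1e-05). Lilrb4a, a receptor of myeloid cells whose sequence is almost wholly shared with another annotated gene, had 0 reads there and was at least 347-fold lower. Syt13, a synaptotagmin, gave 51.6, 50.9 and 59.5 CPM in the primary libraries and 1 read over the immortalized libraries (adjusted p = 1e-05).

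By chromosome, the X stood highest of the X and the autosomes, with a median difference of 0.30 over 425 tested genes, 41.4% of them called higher and 17.6% lower. Its median was above 0 in each immortalized library, at 0.32, 0.20 and 0.35. Chromosome 7 was lowest of the autosomes, with a median of -0.20. The 5 tested genes of the Y had a median of -2.88 and -3.10 in libraries 1 and 2 and of 0.29 in library 3.

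Whether these differences are particular to WT cells was tested against the knockout lines, which were also studied in the primary and the immortalized state. Unlike the WT groups, the knockout lines had been given the drug that switches on the CreER fusion. The study describes a longer exposure to it for excision in immortalized than in primary cells. The part of this drug in the contrasts was not tested. MlxKO cells lack Mlx and MycKO cells lack Myc, and the contrast was the difference between states in the knockout minus that in WT, fitted over all 24 libraries for 13636 genes. Between their own states, 49.4% of these genes were called in MlxKO and 51.5% in MycKO. In MlxKO, 4922 genes (36.1%) differed from WT, 2373 above (17.4%) and 2549 below (18.7%). In MycKO, 5438 genes (39.9%) differed, 2970 above (21.8%) and 2468 below (18.1%). Both contrasts use the same WT libraries, so their counts are not independent of each other. Library 3 is part of each WT mean, and without it 6022 and 6699 genes were called.

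Replication genes rose in all 3 backgrounds, with the lowest median in WT. The study reports primary MycKO MEFs as growth-arrested and primary MlxKO MEFs as growing nearly like WT. Immortalized MycKO MEFs proliferated, and most were tetraploid or pseudo-tetraploid. The part of these cell states in the contrasts was not tested. Among the 40 E2F targets of G1 and S phase, 20 had a larger difference in MlxKO and 36 in MycKO, and 0 a smaller one in either. Medians of the list were 0.84 in WT in its own fit, 1.24 in MlxKO and 1.71 in MycKO. Cdk2 (0.0084, adjusted p = 0.958 in MlxKO and 0.14, 0.3 in MycKO) and Cdkn1a (0.50, 0.14 and 0.36, 0.29) were not shown to differ from WT in either. The p53 target list had 9 members above and 5 below in MlxKO and 6 above and 6 below in MycKO. Contractile genes were less reduced in the knockouts, with 9 of 18 above and 1 below WT in MlxKO and 13 above and 0 below in MycKO. Glycolysis genes were above WT in 13 and 14 of 21 and below it in 1 and 2. Collagens went mostly the other way, with 8 below and 3 above in MlxKO and 10 below and 5 above in MycKO. Mitochondrially encoded RNAs fell in both knockouts, where 13 of 13 were called lower (background 25.6% in MlxKO and 24.9% in MycKO), and the contrast with WT was called below 0 in 12 (MlxKO) and 11 (MycKO). Macrophage markers also fell between states in the knockouts, by less than in WT at the median. In MlxKO 15 of 15 were called lower (median -3.765), and in MycKO 14 were lower and 1 higher (median -2.005). For these markers the contrast was called above 0 in 15 of 15 in MycKO and in 2 of 15 in MlxKO. Interferon-stimulated genes were above WT in 19 of 33 in MlxKO and 22 in MycKO, which rests on a WT mean that includes library 3. Between their own states, 31 of these 33 were called higher in MlxKO (median 2.578) and 30 in MycKO (median 2.51). In each knockout 1 was called lower, and 23.7% and 26.6% of all genes were called higher. In WT without library 3, 29 were called higher, with a median of 1.38.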

How the data were processed

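RNA was sequenced from MEF cultures, and 6 of the 24 libraries, 3 primary WT and 3 immortalized WT, make up the comparison. The authors used CLC Genomics Workbench, with GRCm39 as the genome, and deposited 2 CPM tables, one for primary and one for immortalized cells, exported separately and summing to 971446 to 1077213 per WT library rather than to a common total, so each value was handled as a signal of scaled reads whose scale the tables do not share. Per the labels, submitters' processing notes also name mm39. Columns were matched to groups by name only, and library numbers here follow table order. Every deposited CPM was a whole multiple of the value of 1 read (tolerance 0.001), so reads were recovered exactly, and the 6 libraries were scaled together by TMM (edgeR 4.0.16). The test was limma 3.58.1 with a mean trend on log2(CPM + 1), over genes with a CPM of at least 1 in at least 3 libraries, with Benjamini-Hochberg adjustment over all genes tested and a threshold of 0.05. Interactions with MlxKO and MycKO were fitted over all 24 libraries. R 4.3.3, DESeq2 1.42.0, Python 3.11.15, pandas 2.3.3 and matplotlib 3.10.9 were used. On simulated data limma and edgeR recovered all and DESeq2 99.5% of 200 changed genes. The simulation gave all libraries the same spread and changed only well-expressed genes, by at least 2-fold. Its rates do not apply to smaller differences or to a group with a library set apart as library 3 is.

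The members, the 35 gene lists and the rule for named genes were chosen with earlier results of these data known. Named were all genes of the Rb, p53, cyclin and Myc network lists that the text turns on, and in other lists up to 3 rises and 3 falls with the largest differences, with groups that do not overlap and a mean of at least 5 CPM in a group, with members needed to account for a list and the 10 largest rises and falls. The 10 largest rises and falls left out predicted genes (Gm, LOC or Rik names), pseudogenes and antibody genes. Limb genes were chosen after their values were seen. Some genes that the rule takes are not reported here. Gene positions are from GENCODE on GRCm39. Symbols Claspn, Aldoa, Adss2 and Ctps1 had no row under these names. Alternatives were other scalings, pseudocounts, filters, tests, values adjusted for the length and GC content of transcripts, and leaving out each WT library.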

Additional observations from a re-analysis of the deposited data

Results flagged for a closer look

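The difference between the immortalized and the primary state was itself different from WT in 4922 genes in MlxKO and in 5438 genes in MycKO (limma's interaction term over all 24 libraries, adjusted p under 0.05), and both counts rest on the same WT libraries. Of the genes looked up, Mcm2, a helicase subunit, had an interaction of 0.44 on the log2 scale in MlxKO and 0.72 in MycKO. Tagln had 1.51 and 1.92, so it fell less in the knockouts. For Gapdh the values were 0.74 and 1.16. mt-Nd4 had -1.54 and -1.69. Thy1 had 2.56 and 3.47, and Mest had -4.27 and -4.64. Without immortalized WT library 3 the values in MlxKO and MycKO were 3.49 and 4.38 for Thy1 and -5.55 and -5.94 for Mest, in the same directions. No DKO contrast was fitted, and its values are given on the scale of all 24 libraries. Mest lay between 60.0 and 62.6 CPM in primary DKO and between 623 and 649 CPM in immortalized DKO libraries. Thy1 lay between 1044 and 1063 CPM in primary DKO and between 9.77 and 10.2 CPM in immortalized DKO libraries. Both genes thus moved in DKO in the same direction as in WT. The genotypes, the parental lines, the 4OHT given to the knockouts and the arrest of primary MycKO cells cannot be told apart in these interactions. Each exported table held every genotype of a state, so a shift shared by a whole table cancels in them.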

How the results depend on the processing

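The count of 5955 genes called lay between 4890 and 7795 over other scalings, pseudocounts, filters, tests, values adjusted for the length and GC content of transcripts, and the fit over all 24 libraries. Leaving out each library gave between 3884 and 8282, with 3932 without primary library 1 and 3884 without primary library 2, where fewer samples remain. The count of at least 2-fold, 2195, lay between 1520 and 2559 over the same settings and between 1956 and 2518 with a library left out. For the interactions only WT libraries were left out, and no knockout library was. The counts then lay between 4004 and 6022 for MlxKO and between 4491 and 6699 for MycKO. With only the 4 groups of each contrast they were 4140 and 3658. With library totals in place of TMM, genes above WT numbered 3325 of 5155 in MlxKO and 3674 of 5629 in MycKO. Among the genes named, the correction for GC content and length turned the sign of Mdm4 (-0.34), Mga (-0.075), Tgfbr1 (-0.37) and mt-Nd4 (-0.15), and the cause was not tested. Of 222 genes named and followed, 18 lost their call without a change of sign with that correction, and 24, 25 and 15 lost it without primary library 1, 2 or 3, 12 and 9 without immortalized library 1 or 2 and 0 without immortalized library 3. That correction called 4890 genes, 3747 of them in the same direction as without it and 8 in the opposite one. Medians of some lists changed sign with a setting, among them the Myc network (0.08 with deposited CPM), interferon-stimulated genes (-0.43 and -0.42 without immortalized library 1 or 2), MHC class I genes (0.49 without library 3) and nucleotide synthesis genes (0.11 with deposited CPM). No paired analysis was possible because a column's number names a library and cannot be matched to a labelled replicate. Genes near 3 reads, 0.168 to 0.180 CPM when scaled to each library's own total of reads on genes, are limited by depth.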
